A study of Bos taurus with 20 samples.

Results

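The miRNAs described here are the cattle miRNAs whose numbers run from 2286 to 2999. They were taken by name: every miRNA of the deposited sperm table called bta-miR followed by a number in that range, with any letter or arm suffix, was a member. The rule found 265 members among the 1029 miRNAs of the table. Of these names, 70 carried an arm (5p or 3p, the side of the hairpin that the mature miRNA comes from) and 195 did not. The spermatozoa were frozen-thawed, from 20 Holstein-Friesian bulls used in artificial insemination (AI), 10 of high fertility (HF) and 10 of low fertility (LF), with 1 small RNA library per bull. Bulls were ranked by a fertility score from their insemination records that was adjusted with a statistical model, and no bull was treated. Straws of several ejaculates were pooled for each bull and somatic cells were lysed before RNA extraction. With 1 library per bull, the spread between libraries holds differences between bulls and those of extraction and library preparation, which cannot be told apart. Each bull is named by its group and the number in its label, as in HF bull 17.

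A mature miRNA is a short RNA of about the same length in all families, cut from a hairpin precursor by Drosha and Dicer. It guides Argonaute proteins to partly matching messenger RNAs, which are then repressed. miRBase gives numbers in the order in which miRNAs are registered, so a run of neighbouring numbers reflects one period of discovery. Numbers in this range came to cattle largely from sequencing of cow tissues and cell lines, and many have no named counterpart in other mammals. Spermatozoa are close to silent in transcription and carry little RNA, left from spermatogenesis or taken up in the epididymis and the seminal plasma.

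The values are normalised read counts, that is, CPM over the reads counted on miRNAs, scaled between libraries by the TMM method (trimmed mean of M values). Levels of different miRNAs are compared on this scale with no correction for length. Whole reads were recovered from these values, and the libraries held between 103204 (HF bull 17) and 3097581 reads. A member with 3 reads had a normalised count of 1.19 in the deepest library and of 27.6 in the shallowest. The miRNAs that mark sperm and spermatids (the miR-34b, miR-34c and miR-449 group, 5 of 5 listed) were read in every library, and their summed normalised count was 32093 to 77203 in HF and 25829 to 54584 in LF bulls. The summed level of 4 leukocyte markers was 53.7 to 208 in HF and 39.1 to 284 in LF, that of 2 erythrocyte markers 7.56 to 49.7 and 5.41 to 53.3, that of 4 muscle markers 46.0 to 145 and 17.1 to 141, and that of 6 epithelial markers 6544 to 13138 and 9680 to 15554. By RT-PCR of PTPRC, CDH1 and KIT, the study detected no RNA from leukocytes, epithelial cells or germ cells. The part of other cells in the miRNA levels below was not tested.

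Most members were not seen at all. At least 1 read was counted for 120 of the 265 members in any of the 20 libraries (45.3%), and 145 (54.7%) were listed at 0 in every library. In all libraries together, 3 reads amount to 0.128 CPM, which is the limit that a count of 0 allows for the undetected members. Among the 764 other miRNAs of the table, 611 (80.0%) were detected. A read in every library was found for 12 members (4.53%) and for 280 (36.6%) of the other miRNAs. Another 35 members were read in a single library.

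The members also stood lower than their neighbours in number. The bta-miR-2284 and bta-miR-2285 families, large ruminant families registered just before the range, had 147 names, of which 91.8% were detected and 44.9% were read in every library. Of 83 miRNAs numbered from 6000 to below 11000, 66.3% were detected, and of 97 numbered 11000 and above, 58.8%. Within the range, 57 of 135 members below 2400 (42.2%), 56 of 106 in the 2400s (52.8%) and 7 of 24 from 2500 upward (29.2%) were detected. These shares are descriptions over names and were not tested.

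The number of members seen in a library followed its depth. In HF libraries the lowest, median and highest numbers were 16, 43.5 and 64 members, and in LF libraries 30, 48 and 54. The lowest number belonged to HF bull 17, the shallowest library, and the highest to the deepest. When the number expected at the depth of the shallowest library was computed for each bull, the median was 17.5 in HF (14.1 to 19.4) and 18.0 in LF (15.5 to 20.8), so the groups overlapped almost fully. Of the 120 detected members, 17 were read in HF bulls only, 24 in LF bulls only and 79 in both. Of those seen in 1 group only, 35 came from a single library. The same split is not given here for all miRNAs, so these counts are no result about the members.

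**Figure D1:**
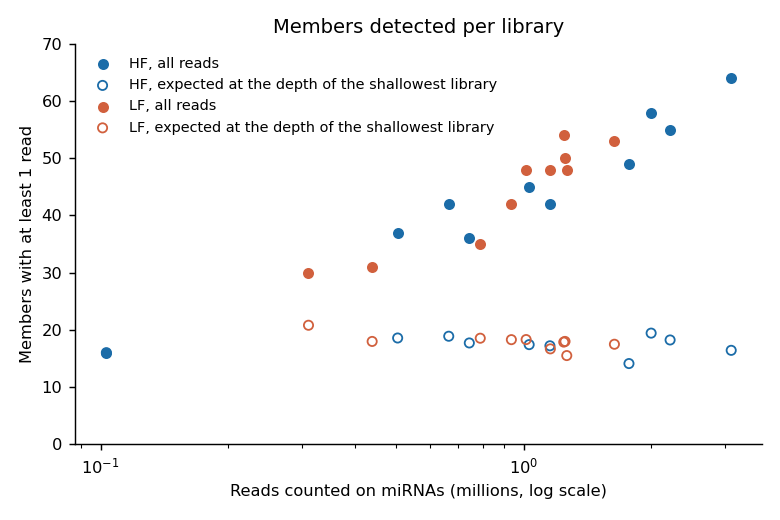
Members with at least 1 read (vertical axis, number) against reads counted on miRNAs in the library (horizontal axis, log scale), 1 filled point per bull; open points give the number expected at the depth of the shallowest library. Filled points climb from 16 to 64 with depth, while open points of HF and LF bulls lie together between 14.1 and 20.8.

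As a whole the members made up little of the sperm miRNA counts, and a few names carried nearly all of it. Their share of the counts was 0.215% ± 0.0656 (SD, n = 10 bulls) for HF, ranging from 0.136% to 0.352%, and 0.210% ± 0.0434 (SD, n = 10 bulls) for LF, ranging from 0.158% to 0.300%. The ranges overlapped over most of their length. Within the members' counts, the top 3 held 66.1% ± 5.95 (SD, n = 20) and the top 10 held 95.1% ± 1.24. Of the 265 members, 3 were among the 100 most abundant miRNAs of the table and 7 among the 200 most abundant. Over 100 reads in some library were reached by 8 members, whereas 99 of the 120 detected members had at most 10 reads in every library.

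**Figure D2:**
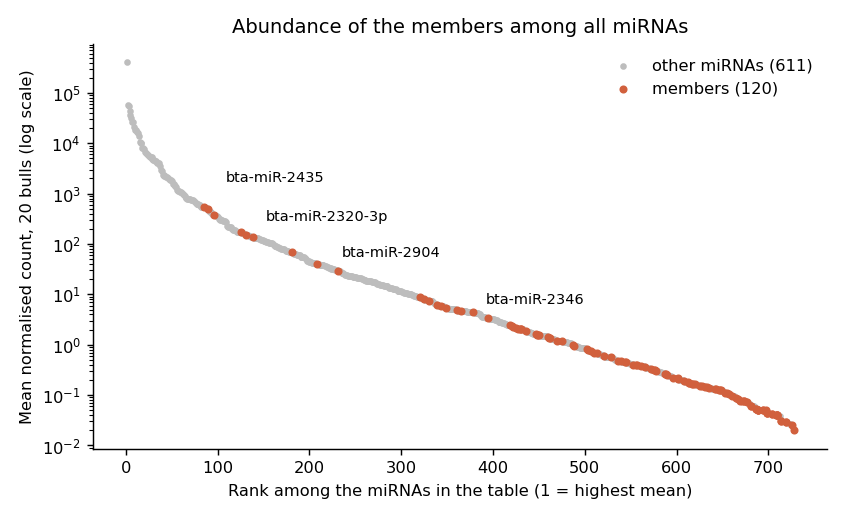
Mean normalised count over 20 bulls (vertical axis, log scale) against rank among the miRNAs with a read (horizontal axis), members in orange and other miRNAs in grey. The highest member, bta-miR-2435, is at rank 85, and members crowd the tail at the lowest levels.

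bta-miR-2435 was the most abundant member, with a mean normalised count of 533 over the 20 bulls and rank 85 of all miRNAs. Its lowest, median and highest values were 397, 543 and 836 in HF bulls and 267, 489 and 616 in LF bulls. RefSeq places its gene inside a protein-coding locus, LOC132345309 (assembly ARS-UCD2.0). The next was bta-miR-2483-5p (mean 488), which lies in the span of TENM1, the gene of an X-linked teneurin, a large cell surface protein. It ran from 101 through a median of 539 to 744 in HF and from 213 to 741 in LF bulls. HF bull 14 had the lowest value, and the next HF bull had 463. The first place was not settled between these miRNAs, since bta-miR-2435 was the higher of the pair in 12 of 20 bulls.

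bta-miR-2419-5p followed on average (mean 384, rank 96) and was the least even of the top 3. Its coefficient of variation over bulls was 74.1%, against 27.1% for bta-miR-2435 and 32.4% for bta-miR-2483-5p, while counting alone would give 7.10%. No bull had a value between 180 and 420. In HF, 5 bulls lay between 66.9 and 120 and 5 between 480 and 912, and in LF, 4 bulls lay between 93.3 and 180 and 6 between 420 and 883. Both fertility groups thus held bulls of both kinds. The shallowest library (HF bull 17) was in the upper range and the deepest (HF bull 2, at 86.8) in the lower, and the part of depth was not tested. The other arm of the hairpin, bta-miR-2419-3p, showed the same bulls: it was at 4.00 to 18.9 in 10 of the 11 bulls of the upper range, with no read in the remaining one, HF bull 17, and at 1.00 or below in the 9 others, 6 of them with no read. The split was noticed in the data, and its cause was not tested. RefSeq lists no gene around this miRNA gene.

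A second tier of members had means between 135 and 172. bta-miR-2320-3p (mean 172) had lowest, median and highest values of 119, 169 and 358 in HF and 110, 156 and 219 in LF. bta-miR-2483-3p (mean 153) had 76.0, 135 and 469 in HF and 61.2, 132 and 229 in LF. For both miRNAs the highest HF value was that of the shallowest library, HF bull 17, where they rested on 39 and 51 reads. bta-miR-2336 (mean 135), with no gene around it in RefSeq, ran from 78.9 to 185 in HF and from 93.8 to 192 in LF bulls, a coefficient of variation of 26.7%. The order among these 3 was loose, since each was above the next in 13 and 12 of 20 bulls.

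The levels then stepped down. bta-miR-2336 was above bta-miR-2468 in 20 of 20 bulls. bta-miR-2468 (mean 68.2), inside the span of SCRG1, ran from 36.6 through 69.0 to 99.6 in HF and from 36.2 through 72.5 to 101 in LF. It was above bta-miR-2904 (mean 39.9) in 18 of 20 bulls. bta-miR-2904 ran from 9.19 through 27.1 to 50.6 in HF and from 13.0 through 28.4 to 250 in LF. The value of 250 came from LF bull 11 (81 reads), and the next LF value was 74.0. bta-miR-2299-5p (mean 28.9), in the span of B3GLCT, a glucosyltransferase of the secretory pathway, ran from 18.4 to 44.2 in HF and from 12.9 to 46.1 in LF, and it could not be ordered against bta-miR-2904, being lower in 9 of 20 bulls.

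**Figure D3:**
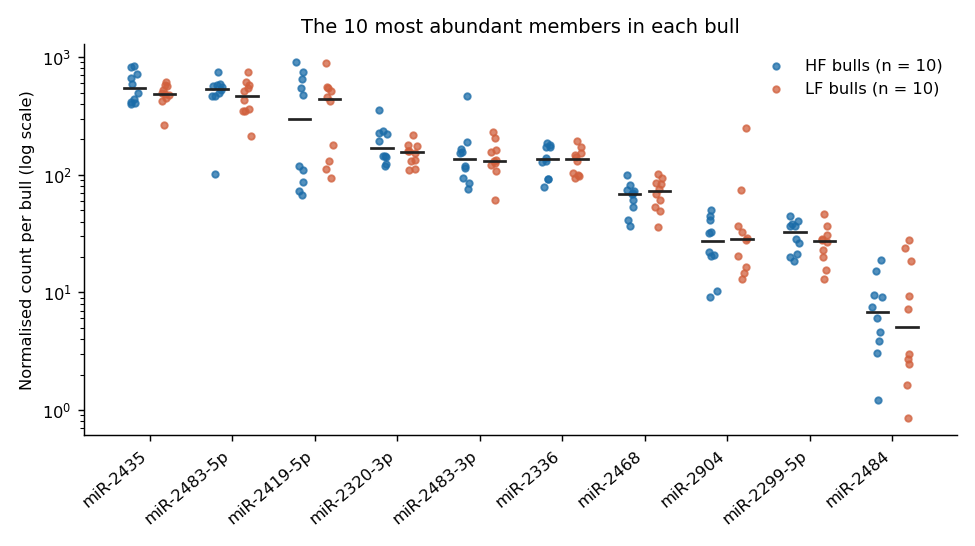
Normalised count per bull (vertical axis, log scale) of the 10 most abundant members, HF bulls in blue and LF bulls in orange, with lines at the group medians. HF and LF points overlap for each of the 10; bta-miR-2419-5p splits into a lower and an upper set in both groups, and LF bull 11 stands apart at 250 for bta-miR-2904.

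Below a mean of 10 the values rested on a few reads per library. bta-miR-2484 (mean 8.81) ran from 1.21 to 19.0 in HF and from 0.862 to 27.8 in LF, and bta-miR-2312 (mean 7.38), inside the glutamate receptor gene GRIK4, from 3.98 to 18.8 and from 0.901 to 18.1. These were the lowest of the named members that had a read in every library, apart from bta-miR-2346 described with the group comparison. bta-miR-2367-3p (mean 5.34), inside the phosphatase gene CTDSPL, ran from 0 to 10.7 in HF and from 1.72 to 14.8 in LF. bta-miR-2450c (mean 6.19) ran from 0 to 24.8 in HF and from 1.84 to 11.4 in LF. Its gene and those of bta-miR-2450a, bta-miR-2450b and bta-miR-2450d all lie inside HTT, the huntingtin gene. Of these relatives bta-miR-2450a had a mean of 0.389 and the other two were listed at 0 in every bull, but how reads that match several relatives were divided is not given in the sources used here, so levels within such families are uncertain.

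Most members lie within other genes. The 265 names came from 231 hairpins, and 228 of them were matched by name to a RefSeq miRNA gene in ARS-UCD2.0. Of the matched hairpins, 176 lay within the span of a protein-coding gene on either strand, and 187 within that of a gene of any kind. Another miRNA gene lay within 10 kb of 19 hairpins, and 5 had more than 1 locus, bta-miR-2887 and bta-miR-2888 among them.

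Both arms of some hairpins were in the table, and the arm with more reads differed between hairpins. Both arms were listed for 34 hairpins, both had a read for 16 and neither for 12. In 10 hairpins at least 1 arm passed the filter on low values described with the group comparison. The 5p arm made up 98.9% ± 0.986 (SD, n = 20) of the bta-miR-2419 counts and 89.9% ± 7.94 of those of bta-miR-2299. The 3p arm held nearly all of bta-miR-2320, where the 5p share was 0.0455% (1 read of the 5p arm against 3529 of the 3p arm over all bulls). The 5p share was 2.23% for bta-miR-2367 (n = 19) and 15.3% for bta-miR-2397 (n = 16), and no 5p read was counted for bta-miR-2328 and bta-miR-2415. bta-miR-2388, inside the transcription factor gene CUX1, and bta-miR-2431 were on the 5p side, at 92.0% ± 14.1 (n = 15) and 77.4% ± 20.6 (n = 18), on a few reads per bull.

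bta-miR-2483 was the hairpin with 2 abundant arms. The 5p share averaged 75.1% ± 11.8 (SD, n = 20) and ran from 46.2% to 89.9%. The 5p arm was the higher in 19 of 20 bulls, and HF bull 14, with 133 reads of 5p and 155 of 3p, was the exception. The share was 75.2% ± 12.7 in HF bulls and differed from that in LF bulls by far less than this spread. Across the 20 bulls no relation between the arms was detected on the log2 scale (Pearson's r = 0.040, permutation p = 0.85; Spearman's rho = -0.096, permutation p = 0.69; 0.85 and 0.69 after adjustment over the 5 pairs of members compared). Without the 2 bulls farthest from the median of the 5p arm r was 0.022, and it was 0.29 within HF and -0.50 within LF bulls.

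**Figure D4:**
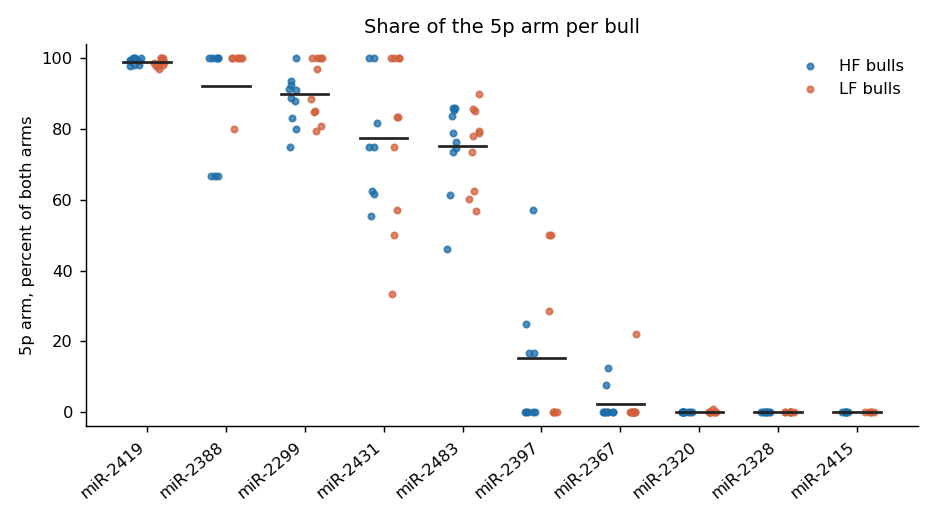
Share of the 5p arm in the summed normalised count of both arms (vertical axis, percent) per bull for the 10 hairpins in which either arm passed the filter, HF in blue and LF in orange, lines at the means; bulls without a read of the hairpin have no point. bta-miR-2419 lies at 97.0% to 100%, bta-miR-2483 is spread from 46.2% to 89.9%, and bta-miR-2320 lies near 0.

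The comparison of HF with LF bulls asked whether any member differed with fertility. Low miRNAs, those under a normalised count of 1 in 10 or more bulls, were set aside, and of the 435 miRNAs kept 29 were members. Thus 145 members had no read, 91 had reads but did not pass, and 29 were compared. Differences are given as log2 fold changes of HF over LF on log2(normalised count + 1), which understates the change of low miRNAs, and were tested with limma. A miRNA was called when its unadjusted p was under 0.05 and its fold change over 1.5. In bulk RNA, fewer cells that carry a miRNA and less of it per cell cannot be told apart.

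Of the 29 members, 2 were called, bta-miR-2397-3p and bta-miR-2346, both higher in HF bulls. This is 6.90% of the members compared, beside 2.07% (9 of 435) of all miRNAs compared. Of the 2, bta-miR-2397-3p passed the filter mainly through the HF bulls, where it was high. The calls higher in HF were 2 members, beside 0.92% of all miRNAs, and the calls lower in HF 0 members, beside 1.15%. None passed an adjusted p of 0.05 with limma and the Benjamini-Hochberg method over the 435, where the smallest value of a member was 0.94, and 2 members had an unadjusted p under 0.05 against 3.45% of all miRNAs (2 higher in HF beside 1.61%, and 0 lower beside 1.84%). The log2 fold change was above 0 for 15 of the 29 members, beside 50.1% of all miRNAs, and its median was 0.0051 over the members and over all miRNAs alike. By number, 8 of 14 members below 2400 were higher in HF, 7 of 12 in the 2400s and 0 of 3 from 2500 upward.

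bta-miR-2397-3p, whose gene lies in GLRX3, a glutaredoxin gene, had lowest, median and highest values of 0, 2.27 and 5.00 in HF and 0, 0.882 and 4.07 in LF bulls. In HF bulls 33 reads were counted in 9 libraries and in LF bulls 11 reads in 7 libraries, and no library had more than 6. Of the HF bulls, 9 of 10 lay above the LF median, HF bull 17 had no read, and the groups overlapped through LF bull 19. The log2 fold change was 0.94 ± 0.37 (SE; 95% interval 0.17 to 1.71), with p = 0.019 and an adjusted p of 0.94 (limma). The p was between 0.0028 and 0.036 when each bull was left out in turn (limma). The LF median was under the level of 1 that the filter asks for, so this miRNA passed mainly through HF bulls. Its call and these p-values are therefore no independent support for a difference between the groups.

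bta-miR-2346, whose gene lies in ASPSCR1, had lowest, median and highest values of 3.07, 5.66 and 9.19 in HF and 0.991, 3.15 and 8.95 in LF bulls. It was read in every library, with 71 reads in HF and 40 in LF bulls. The highest HF value was a single read of HF bull 17, and 9 of 10 HF bulls lay above the LF median. The log2 fold change was 0.72 ± 0.31 (SE; 95% interval 0.077 to 1.37), with p = 0.030 and an adjusted p of 0.94 (limma). This call was lost without LF bull 4 (p = 0.062), LF bull 7 (p = 0.061) or LF bull 20 (p = 0.054), and without the shallowest library of each group (p = 0.054). It was also lost on recovered reads with edgeR's likelihood ratio test (p = 0.12), its quasi-likelihood test (p = 0.11) and DESeq2 (p = 0.17), and with a pseudocount of 5, where the fold change was under 1.5.

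The member with the largest deficit in HF was bta-miR-2887. Its lowest, median and highest values were 0, 5.54 and 9.96 in HF and 1.19, 11.2 and 18.5 in LF bulls. No HF bull reached the LF median, though the ranges overlapped. The log2 fold change was -0.79 ± 0.42 (SE; 95% interval -1.66 to 0.084) with p = 0.074 and an adjusted p of 0.94 (limma), so it was not called. Without LF bull 5, the lowest of its group, p was 0.014, and without LF bull 13 it was 0.045 (limma). These were the only 2 of 20 such fits with p under 0.05. Over the 20 fits the log2 fold change ranged from -1.03 to -0.51, and p reached 0.16 (limma). The HF value of 0 was that of HF bull 17, the shallowest library, where a single read is worth 9.19.

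The abundant members were not called. The differences were 0.22 ± 0.18 for bta-miR-2435 (SE; 95% interval -0.15 to 0.59, limma p = 0.24), 0.057 ± 0.28 for bta-miR-2483-5p (p = 0.84) and 0.26 ± 0.20 for bta-miR-2320-3p (p = 0.20). For bta-miR-2419-5p the difference of -0.33 ± 0.53 had a 95% interval of -1.44 to 0.77, and its 3p arm was at -0.75 ± 0.71 (p = 0.30). bta-miR-2299-3p, at a mean of 3.94 in HF and 2.90 in LF bulls, was at 0.65 ± 0.50 (p = 0.20). A p over 0.05 does not show that these levels were equal.

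For bta-miR-2904 a single bull decided the LF mean. The 10 HF bulls had a mean bta-miR-2904 level of 28.4 ± 14.2 (SD). The 10 LF bulls had 51.5 ± 72.0, which fell to 29.4 ± 18.7 (n = 9) without LF bull 11. Its log2 fold change went from -0.36 (p = 0.41) to -0.037 (p = 0.92) without that bull (limma). In bta-miR-2888, too, LF bull 11 was the highest, at 27.8 against an LF median of 4.16. LF bull 11 had the fewest reads of the LF libraries, 310186, and was the highest LF bull for 7 of the 29 members.

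Among the members that did not pass the filter, bta-miR-2342 is listed by the study as differing between the groups. It ran from 0 through 1.90 to 5.32 in HF and from 0 through 0.431 to 4.89 in LF bulls, with at most 9 reads in a library. The study used edgeR on its own filtered set, so its test is not the one used here. Fitted without the filter, over 731 miRNAs, the log2 fold change of bta-miR-2342 was 0.57 ± 0.42 (SE, limma p = 0.19). In that fit 3 of 120 members were called, beside 15 of all 731 miRNAs. They were the 2 above and bta-miR-2331-3p. The latter had no read in HF bulls and 11 reads over 6 LF bulls, with at most 5 in a library. Its log2 fold change was -0.73 (limma p = 0.0050, adjusted p 0.91). It entered the fit only through LF bulls, where it is high, and was named after its values were seen. Its p is therefore no support for a difference between the groups.

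**Figure D5:**
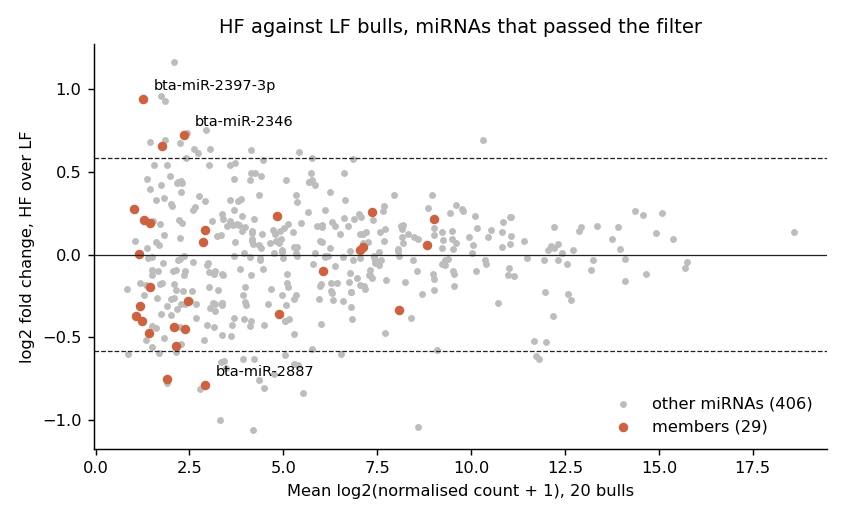
Log2 fold change of HF over LF bulls (vertical axis) against the mean of log2(normalised count + 1) over 20 bulls (horizontal axis) for 435 miRNAs, the 29 members in orange; dashed lines mark a fold change of 1.5. Both called members, bta-miR-2397-3p and bta-miR-2346, sit among the low levels, and the members above a mean log2 of 5 lie between -0.33 and 0.26.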

How the data were processed

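Small RNA libraries of spermatozoa from 10 HF and 10 LF bulls were used, grouped by their labels. The authors trimmed adapters (Cutadapt), kept short reads, removed other short RNAs, aligned to ARS-UCD1.2 with the Y chromosome and counted bovine miRNAs with miRDeep2. The submitters' notes give Cutadapt 2.6 and edgeR 3.5, whereas the published study names other versions of both. The deposited values are a signal per miRNA and library, TMM-normalised CPM. Each library's value of 1 read was taken from its low values: 95.0% of values above 0, and 99.5% of those of members, were whole within 0.01 reads. For HF bull 6 this recovery is less firm. Libraries held 103204 to 3097581 reads, and counting limits cover counting error only. No pair of libraries was identical.

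limma 3.58.1 (R 4.3.3, variance trend) was fitted to all 435 miRNAs on log2(normalised count + 1), without covariates, with Benjamini-Hochberg adjustment. The thresholds are the study's. Alternatives were edgeR 4.0.16 and DESeq2 1.42.0 on recovered reads, other scalings, pseudocounts and filters, and leaving out bulls. Scripts were tested on simulated data. Described by name were the 15 most abundant members, those called, the 5 smallest p-values, hairpins with both arms and a member the study lists. Members and lists were chosen with earlier results of these data known. Correlations used 100000 resamples (scipy 1.17.1). RefSeq names came from ARS-UCD2.0, another build, so no coordinates are given, and sequences were not used here.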

Additional observations from a re-analysis of the deposited data

Results flagged for a closer look

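In 42 groups of 10 values (19 named members, the members' share of the counts and the number of members detected, each in HF and in LF bulls) the gap between the highest or lowest bull and the next was divided by the whole range of the 10. It was wider than Dixon's 95% limit in 9 groups. Chance alone would give about 2.1 for normal values in independent groups. The values here were normalised counts without a log, taken from the same bulls, so the 2.1 does not apply to them. Whether 9 groups are more than chance would give was not tested. The largest gap was that of bta-miR-2904 in LF bull 11, with 250 (81 reads) against 74.0 for the next bull, a share of 0.743.

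HF bull 17, the shallowest library, was the highest HF bull for bta-miR-2483-3p (469 from 51 reads, next 190, share 0.709) and for bta-miR-2320-3p (358 from 39 reads, next 234, share 0.520). HF bull 14 was the lowest HF bull for bta-miR-2483-5p (101 from 133 reads, next 463, share 0.562), in a library of 1154590 reads.

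The other gaps were among low members. For bta-miR-2312 they were those of HF bull 12 (18.8 from 36 reads, next 9.20, share 0.649) and LF bull 7 (18.1 from 18 reads, next 8.81, share 0.539). For bta-miR-2450c it was HF bull 10 (24.8 from 49 reads, next 9.20, share 0.628). For bta-miR-2367-3p it was LF bull 18 (14.8 from 12 reads, next 7.33, share 0.572). For bta-miR-2397-3p it was LF bull 19 (4.07 from 5 reads, next 1.23, share 0.697).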

How the results depend on the processing

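The count of miRNAs called, 9, became 4 with a pseudocount of 5, 15 without the filter, 0 with a minimum of 10 in every library (5 at an unadjusted p under 0.05) and 7 to 15 with each bull left out. It was 15 without HF bull 6 and 14 without LF bull 1, LF bull 11 or LF bull 13. Without TMM, 3 of 11 calls were higher in HF, against 4 of 9. The 2 members called became 1 with either edgeR test or without the shallowest library of each group, 0 with a pseudocount of 5 or a minimum of 10, and 1 to 3 with each bull left out. bta-miR-2397-3p was called in 20 of 20 such fits and bta-miR-2346 in 17. As bta-miR-2397-3p passed the filter mainly through HF bulls, where it was high, these fits are no independent support for its call. With a pseudocount of 5 both had a log2 fold change of 0.37, under the fold limit. bta-miR-2346 was at 0.57 (p = 0.12) with edgeR's likelihood ratio test, 0.59 (p = 0.11) with its quasi-likelihood test, 0.56 (p = 0.17) with DESeq2 and 0.66 without the shallowest libraries. DESeq2 called bta-miR-2887 (-0.78, p = 0.046). The causes were not tested.

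Signs turned for 7 named members under other settings: without TMM bta-miR-2483-5p (-0.0051), bta-miR-2483-3p (-0.014) and bta-miR-2336 (-0.036); without the shallowest libraries bta-miR-2483-5p (-0.059), bta-miR-2483-3p (-0.062), bta-miR-2904 (0.11) and bta-miR-2367-3p (0.0050). On reads, bta-miR-2484 was at -0.31 (likelihood ratio), -0.33 (quasi-likelihood) and -0.36 (DESeq2), and at -0.024 with a pseudocount of 5. On reads, bta-miR-2450c was at 0.14, 0.15 and 0.11, and bta-miR-2367-3p at 0.025 by likelihood ratio. Leaving out bulls gave -0.060 to 0.30 for bta-miR-2483-5p, -0.15 to 0.14 for bta-miR-2483-3p, -0.029 to 0.11 for bta-miR-2336, -0.14 to 0.30 for bta-miR-2484 and -0.065 to 0.30 for bta-miR-2312.

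With at least 3 reads required, 62 members were detected instead of 120, and the median library had 22 (HF) or 22.5 (LF). With 1 read required, the medians expected at the shallowest depth were 17.5 and 18.0. Without bta-miR-2435 the members' share was 0.158% in HF and 0.160% in LF bulls, so the small difference turned, as it did over pooled reads (0.189% and 0.199%). Depth limits the low members: 17 of the 29 compared had a median of 5 reads or fewer, and 15 had no read in HF bull 17. No paired analysis was possible because the HF and LF libraries came from different bulls.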

Other observations

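Across the 20 bulls bta-miR-2904 and bta-miR-2888 rose and fell together on the log2 scale (Pearson's r = 0.87, permutation p = 1e-05, the smallest that the resamples can give; Spearman's rho = 0.79, permutation p = 9e-05; 5e-05 and 0.00045 after adjustment over 5 pairs). Without LF bull 11 and HF bull 17 r was 0.76, and it was 0.83 within HF and 0.90 within LF bulls. bta-miR-2887 followed them less closely, with r = 0.45 for bta-miR-2904 (permutation p = 0.050, rho = 0.28, p = 0.24) and r = 0.56 for bta-miR-2888 (permutation p = 0.011, rho = 0.39, p = 0.086). Without the 2 farthest bulls these were 0.16 and 0.25, so they rest on those bulls. The pairs were chosen after their values were seen, and bta-miR-2888 had at most 11 reads in a library.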
